A study of Danio rerio with 6 samples.

Results

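Of 8363 lncRNA transcripts assembled from zebrafish ZF4 cells, 368 were listed at exactly 0 FPKM in cold acclimated cells. FPKM is the number of fragments per kilobase of transcript and per 1000000 mapped fragments. The 368 transcripts, called zero-in-cold lncRNAs here, were selected on the measured value itself, so the loss in the cold is how they were chosen and not a finding about them. They make up 4.40% of the table, and 246 other transcripts (2.94%) were listed at 0 in control cells. No transcript was at 0 in both groups. The 7749 transcripts above 0 in both groups served as the comparison lncRNAs.

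ZF4 is an embryonic fibroblast cell line of zebrafish. RNA was sequenced from 3 control libraries of cells grown at 28°C and 3 libraries of cells kept at 18°C for 30 days. The labels name no other treatment or genotype, and all libraries came from the same cell line, so other zebrafish cells were not sampled. The table gives 1 mean per group, so neither the spread between libraries nor the depth of each library is known, and no difference computed here from these means has a replicate check. The study's qRT-PCR measurements were not used here. The table holds assembled lncRNAs and no protein-coding genes, so the fibroblast label could not be checked against marker genes.

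LncRNAs are transcripts without a long open reading frame. They are often spliced little, short and low in level, and many are found in few cell types. Some act on neighbouring genes, others in trans, and for most of those assembled from RNA-Seq no function is known. When several transcripts overlap, a quantification program has to divide the shared reads among them, so the level of 1 isoform depends on what is assigned to the others.

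The study designed qRT-PCR primers for a pair of the zero-in-cold lncRNAs. MSTRG.30168.2 is named with epha3, an ephrin receptor tyrosine kinase of cell contact and axon guidance. MSTRG.28882.1 is named with slc6a8, the creatine transporter. The primers are shown in full and 5′ to 3′ because they define which part of each RNA a bench assay would detect. Their positions within the transcripts were not determined here.
MSTRG.30168.2 forward: aaccttggtctgcgacttaat
MSTRG.30168.2 reverse: cctctgacctggtgctttaat
MSTRG.28882.1 forward: cacactctatctctcgtcctct
MSTRG.28882.1 reverse: ggcgaccttaagcgttatct

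Most zero-in-cold lncRNAs had a low level in control cells. Their median control FPKM was 0.661 (95% interval of the median 0.637 to 0.697, n = 368), against 1.18 in the comparison lncRNAs (1.16 to 1.20, n = 7749). The quartiles were 0.568 and 0.893, and the values ran from 0.277 to 60.6 FPKM. Control means of 0.5 to 0.75 FPKM were found for 211 of the 368 (57.3%), above 1 FPKM for 74, above 2 for 16 and above 5 for only 3. In RNA from whole cultures, fewer expressing cells and less RNA per cell cannot be told apart. These intervals, and those of the shares below, cover counting error over transcripts, which are not replicates of a condition.

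The authors kept a transcript when its FPKM exceeded 0.5 in at least 1 library. A zero-in-cold lncRNA could pass this filter only through a control library, because a mean of 0 over values that cannot be negative leaves every cold library at 0 to the digits given. Accordingly 345 of the 368 had a control mean above 0.5 FPKM. The lowest control means were those of MSTRG.30.13 at mbnl2, a splicing regulator gene (0.277 FPKM), MSTRG.626.2 (0.330) and MSTRG.6967.2 (0.354). In the class of control FPKM up to 0.5 the share listed at 0 in cold was 2.39% (23 of 961). In that class 785 of the 961 had a cold mean above 0.5 FPKM. In the class from 0.5 to 0.75 FPKM the share was 18.9% (211 of 1118, Wilson 95% interval 16.7% to 21.3%). It was 4.66% from 0.75 to 1 FPKM, 2.26% from 1 to 1.5, 1.41% from 1.5 to 2, 1.05% from 2 to 5 and 0.527% (3 of 569) above 5 FPKM.

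The transcripts just above the threshold of 0 had cold values near it. The smallest were MSTRG.798.2, with 1.01 FPKM in control and 5.2e-05 in cold, MSTRG.30077.8 at itgav (11.9 and 0.000525) and MSTRG.7148.1 at ulk2 (0.641 and 0.00161). Between 0 and 0.001 FPKM there were 2 transcripts, up to 0.01 there were 18, up to 0.05 there were 201 and up to 0.1 there were 465. Few cold values thus lay just above 0, while 368 were at exactly 0.

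The zero-in-cold lncRNAs were short. Their median length was 277 nt (95% interval 265 to 294), and 211 of them (57.3%) were shorter than 300 nt. The comparison lncRNAs had a median of 565 nt, and 416 nt once weighted to the same classes of control FPKM. Over the whole table, the share listed at 0 in cold was 11.9% among transcripts of up to 250 nt (140 of 1176). It was 8.78% from 251 to 300 nt, 5.29% up to 400 nt, 3.75% up to 500 nt, and 0.788% (7 of 888) above 2000 nt. The lncRNAs listed at 0 in control cells were short as well, with a median length of 259 nt and a median cold FPKM of 0.577. Among them 70.7% had 1 exon (interval 64.8% to 76.1%) and 18.3% lay at a locus with other transcripts.

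Length and level combined gave the widest contrast. Among lncRNAs of up to 250 nt with control means from 0.5 to 0.75 FPKM, 98 of 269 (36.4%, interval 30.9% to 42.3%) were at 0 in cold. At the same level, 9 of 203 transcripts of 501 to 1000 nt were (4.43%, interval 2.35% to 8.21%). Above 2 FPKM the share was between 0.671% and 1.5% in every length class, with intervals that all overlapped. The 36.4% therefore belongs to short transcripts close to the expression filter.

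**Figure D1:**
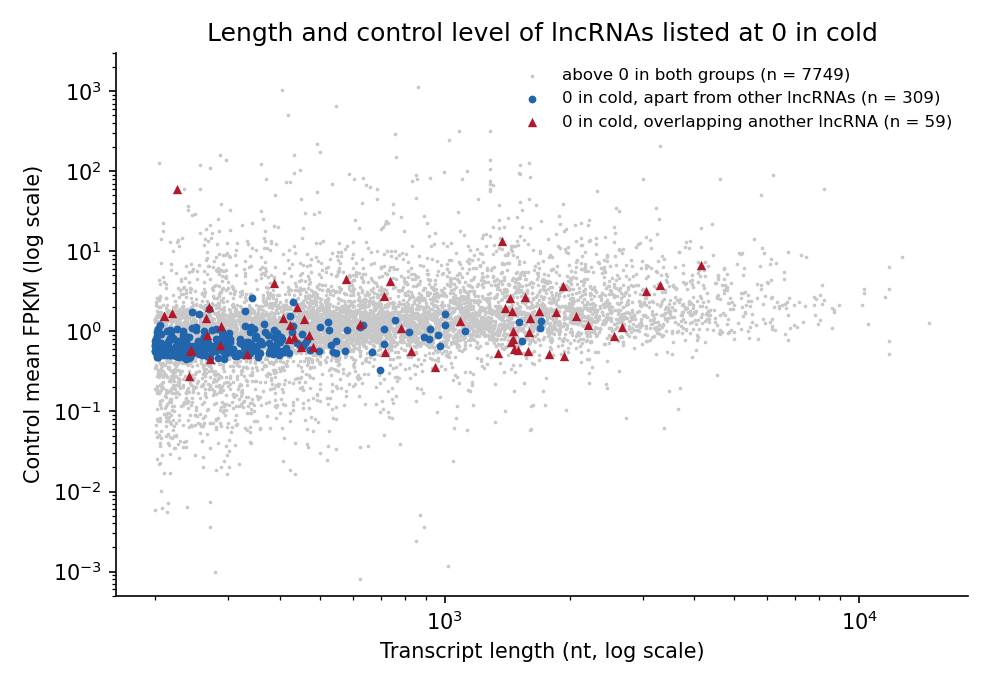
Control mean FPKM (vertical, log scale) against transcript length in nt (horizontal, log scale). Grey points are the 7749 lncRNAs above 0 in both groups, blue points the 309 zero-in-cold lncRNAs that overlap no other assembled lncRNA, and red triangles the 59 that overlap another or share its locus. The blue points crowd at short lengths just above 0.5 FPKM, with medians of 262 nt and 0.646 FPKM, and the red triangles spread to greater length and level.

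**Figure D2:**
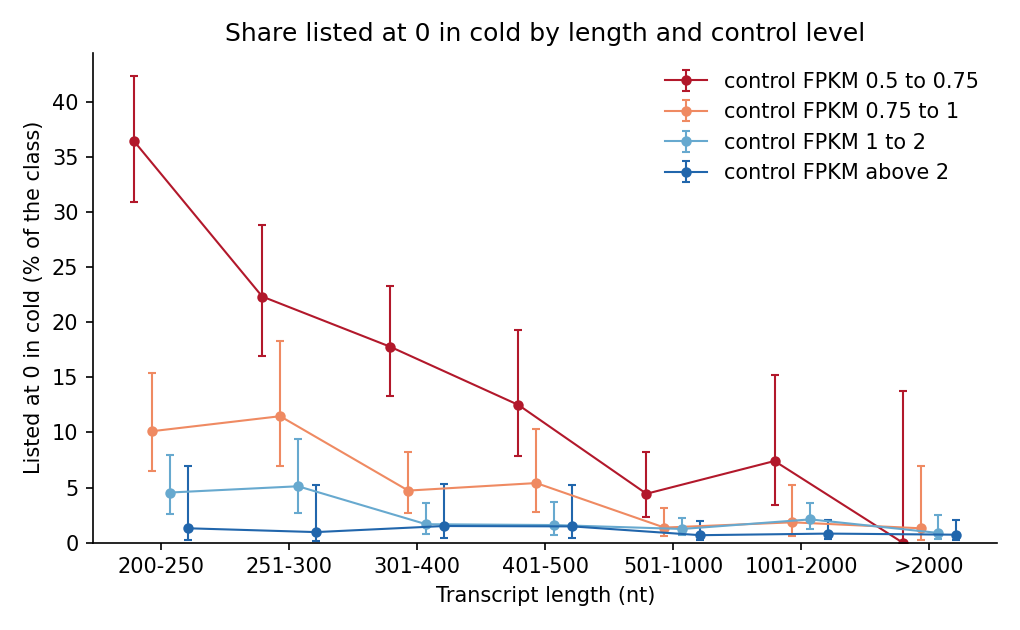
Share of lncRNAs listed at 0 in cold (vertical, percent) by length class (horizontal, nt), as a line for each of 4 classes of control FPKM. Bars are Wilson 95% intervals over transcripts. In the class from 0.5 to 0.75 FPKM the share goes from 36.4% in the shortest transcripts to 4.43% at 501 to 1000 nt, and above 2 FPKM it stays at or under 1.5%.

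FPKM divides by length, so a short transcript with the same FPKM rests on fewer fragments. The product of FPKM and length in kb gives FPM, the fragments per 1000000 mapped. The median of this product in control cells was 0.199 for the zero-in-cold lncRNAs (0.183 to 0.217) and 0.715 for the comparison lncRNAs. A control FPM under 0.25 was found for 238 of the 368 (64.7%), against 20.9% of the comparison lncRNAs. Under 0.1 FPM, 3 of 573 (0.524%) were listed at 0 in cold. As all transcripts had at least 200 nt, this class lay at control means of up to 0.5 FPKM. At that level 785 of 961 had a cold mean above 0.5 FPKM. Most of the 961 thus met the filter in cold and could not be at 0 there. Between 0.1 and 0.15 FPM, 26.9% of transcripts (105 of 391) were listed at 0 in cold. The share was 13% between 0.2 and 0.25, 4.69% between 0.3 and 0.4, and 1.01% above 2. Weighting the comparison lncRNAs to the same fragment classes brought their median length to 307 nt. Their median cold level under this weighting was 0.601 FPKM, and 12.9% of them lay under 0.1 FPKM in cold. The fragment classes also hold transcripts of up to 0.5 FPKM in control, most of which met the filter in cold. Weighted by control FPKM class the median cold level was 0.525 FPKM, and by FPKM and length class together 0.469.

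Most zero-in-cold lncRNAs were unspliced. A single exon was listed for 291 of the 368 (79.1%, interval 74.6% to 82.9%), 2 exons for 56, and 3 or more for 21. Among comparison lncRNAs 69.8% had 1 exon, and 79.9% after weighting by control FPKM class. Averaged over the classes of control FPKM in this way, the comparison share lay within the interval of the zero-in-cold lncRNAs. Weighted by control FPKM and length class together it was 83.5%, above that interval. From 0.5 to 0.75 FPKM, 20.5% of transcripts with 1 exon were at 0 in cold (194 of 946). Among spliced ones 9.88% were (17 of 172). From 1 to 2 FPKM the shares were 1.41% and 3.44%. In all classes but that from 0.5 to 0.75 FPKM the spliced share was higher. The most exons, 6, were found in MSTRG.1892.5 at rps6kb1a, a ribosomal protein S6 kinase gene. MSTRG.31334.6 (1.36 FPKM in control) and MSTRG.12111.5 (0.516), both with no gene named, had 4 exons each.

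The spliced and the unspliced ones differed in level. The 77 spliced zero-in-cold lncRNAs had a median control level of 1.13 FPKM and a median length of 481 nt, against 0.637 FPKM and 262 nt in the 291 with 1 exon. Among the spliced ones 55 (71.4%, interval 60.5% to 80.3%) overlapped another assembled lncRNA or shared its locus. Of those with 1 exon, 4 did (1.37%). The corresponding shares in the comparison lncRNAs were 47.2% and 4.05%. Spliced lncRNAs thus overlapped others more often than unspliced ones in both sets. Of the 77 spliced zero-in-cold lncRNAs, 22 neither overlapped another kept lncRNA nor shared its locus. Transcripts that the authors removed as known or coding were not counted. Overlap was counted on the listed intervals from start to end, introns included and strand unknown. It therefore need not mean shared exons or shared reads. The spliced zero-in-cold lncRNAs had a median span of 4540 nt, against 4307.5 nt in the spliced comparison lncRNAs.

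At a locus with other assembled transcripts lay 50 zero-in-cold lncRNAs (13.6%, interval 10.5% to 17.5%), at 44 loci. The share was 6.65% in the comparison lncRNAs weighted by control FPKM. Unweighted it was 10.2%. Above 1 FPKM in control the contrast was wider, with 40.5% against 9.46%, and the share with 1 exon was 41.9% against 68.1%. Of the 25 zero-in-cold lncRNAs with the highest control FPKM, all at or above 1.64 FPKM, 22 were spliced and 19 overlapped or shared a locus with another lncRNA. Among all 1807 lncRNAs above 2 FPKM in control, 1033 were spliced. A matching count of overlap at such levels is not given here. Over the whole table, with no weighting, overlap did not go with a higher share at 0. It was 4.12% (59 of 1433) with overlap or a shared locus and 4.46% (309 of 6930) without. At matched control FPKM, 16.0% of the zero-in-cold lncRNAs overlapped another lncRNA, against 10.4% of the comparison lncRNAs. Matched on FPKM and length class, the comparison had 7.90%.

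None of these 44 loci had all of its listed lncRNAs at 0 in cold. At 40 of the 44 loci another transcript was above 0.5 FPKM in cold acclimated cells, and at 34 above 1 FPKM. Any of the other transcripts at a locus could meet this, and the median cold level over all lncRNAs was 0.736 FPKM. Matching counts for loci without a zero-in-cold lncRNA are not given here, so these counts are not a trait of the 44 loci. Of the 99 other transcripts at these loci 33 were higher in cold (33.3%) and 66 were lower. The 33 include 6 at 0 in control, which could only be higher. Over all 7749 comparison lncRNAs 32.8% were higher in cold. At the 283 loci of several transcripts that held no zero-in-cold lncRNA, 41.0% of the 698 transcripts above 0 in both groups were higher in cold. The fragments of all lncRNAs listed at a locus were also summed. Transcripts of known or coding type had been removed by the authors, so all locus sums here cover the kept lncRNAs and not the whole locus. Their log2 ratio of cold over control had a median of -0.88 and ran from -3.29 to 0.96. It lay within 2-fold at 24 of the 44 loci (54.5%), and the other 20 were more than 2-fold lower in cold. At the 283 loci the median was -0.25 and 72.4% lay within 2-fold. These sums hold the zeros that chose the loci. Without the zero-in-cold lncRNAs, the other transcripts' sums had a median log2 ratio of -0.57. This is below that of the 283 loci, but near the median of -0.63 over the single comparison lncRNAs.

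In a group of 20 zero-in-cold lncRNAs (5.43%), another transcript began and ended within 50 nt of the same positions. The same was true of 350 comparison lncRNAs (4.52%). The distance of 50 nt was chosen after the values were seen. In 18 of the 20 such a partner was above 0.5 FPKM in cold, and in 10 a partner was higher in cold than in control. Where a transcript had several partners, any of them could meet these counts. Matching counts for the 350 comparison lncRNAs are not given here. Over all comparison lncRNAs 32.8% were higher in cold. Reads that both transcripts of such a pair could produce were divided between them by the quantification, and how much this contributed to the listed 0 was not tested.

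The highest control level of all, 60.6 FPKM, belonged to MSTRG.9373.2 at ctage5, a gene of protein export from the endoplasmic reticulum. It is a transcript of 226 nt in 3 exons at chr17:12791263-12948709 (GRCz10). Its partner MSTRG.9373.3 has 225 nt and 3 exons, starts 3 nt later and ends 1 nt earlier. MSTRG.9373.3 was at 0.383 FPKM in control and 90.9 FPKM in cold. The levels of the pair summed to 61.0 FPKM in control and 90.9 in cold. The other transcript of the locus, MSTRG.9373.1, went from 4.80 to 14.3 FPKM. At this locus 1 isoform was listed at 0 while the near-identical one and the sum of the listed lncRNAs were higher in cold.

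The itgav locus at chr9:11624785-11671373 had the same kind of exchange. Itgav is the alpha V integrin subunit, a receptor for extracellular matrix. MSTRG.30077.5 was at 13.5 FPKM in control and at 0 in cold. MSTRG.30077.8 went from 11.9 to 0.000525 FPKM, just above the threshold. MSTRG.30077.9, MSTRG.30077.11 and MSTRG.30077.12 were listed at 0 in control and at 7.80, 4.76 and 6.52 FPKM in cold. MSTRG.30077.6 went from 3.40 to 16.2 FPKM, MSTRG.30077.7 from 4.37 to 4.47 and MSTRG.30077.10 from 6.86 to 4.13. The 8 isoforms of 1316 to 1391 nt together held 54.5 FPM in control and 60.4 in cold, a log2 ratio of 0.15.

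MSTRG.11108.1, with no gene named, had the most control fragments of all (28.2 FPM) and was the longest at 4154 nt. It lies at chr18:46629957-46634110 with 6.78 FPKM in control. MSTRG.11107.1 has the same interval, length and single exon under another locus number, and was at 11.4 FPKM in control and 8.48 in cold. The table gives no strand, so a sense and an antisense transcript cannot be told apart here. As a pair they held 75.6 FPM in control and 35.2 in cold, a log2 ratio of -1.10. That sum includes the 0 that chose MSTRG.11108.1. Without it, MSTRG.11107.1 held 47.4 FPM in control and 35.2 in cold.

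MSTRG.30168.2 at epha3 (chr9:16461511-16464853, 3311 nt, 2 exons) held 96.9% of the control fragments of the lncRNAs listed at its locus. This was the highest share of the 44 loci, followed by 89.8% at cd276. At 4 loci the zero-in-cold lncRNAs held over 50%. MSTRG.30168.2 was at 3.75 FPKM in control and at 0 in cold. The overlapping MSTRG.30168.1, unspliced and with the same start, went from 0.109 to 0.814 FPKM. The sum of these lncRNAs was lower in cold, with 12.8 and 2.98 FPM and a log2 ratio of -2.10. That total includes the 0 that chose the transcript. Without MSTRG.30168.2, the lncRNA fragments at this locus went from 0.398 FPM in control to 2.98 in cold.

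MSTRG.28882.1 at slc6a8 (chr8:8991622-9047839, 1608 nt, 3 exons) was at 1.47 FPKM in control and at 0 in cold. It was the sole lncRNA listed under its locus number. It overlapped MSTRG.28881.1, which was at 4.65 FPKM in control and 3.97 in cold. The overlap with this second lncRNA covers the left end of its interval.

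At rps6kb1a, MSTRG.1892.5 went from 3.18 FPKM to 0. It held the smaller part of the lncRNA fragments there. With overlapping lncRNAs, 131 FPM were found in control and 48.5 in cold, a log2 ratio of -1.44. MSTRG.1892.6, which has the same ends and 6 exons and differs by 10 nt in length, went from 4.67 to 1.27 FPKM. MSTRG.6853.4, with no gene named, went from 3.64 FPKM to 0 at a locus whose sum was 50.6 FPM in control and 15.3 in cold. Without the zero-in-cold lncRNAs, the sums at rps6kb1a were 122 FPM in control and 48.5 in cold. At the other locus they were 43.6 and 15.3. The summed lncRNAs of these loci fell more than 2-fold. Those of them with a higher value in cold were MSTRG.1892.3 (0.480 and 1.66 FPKM) and MSTRG.6853.6 (0.451 and 0.786 FPKM).

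**Figure D3:**
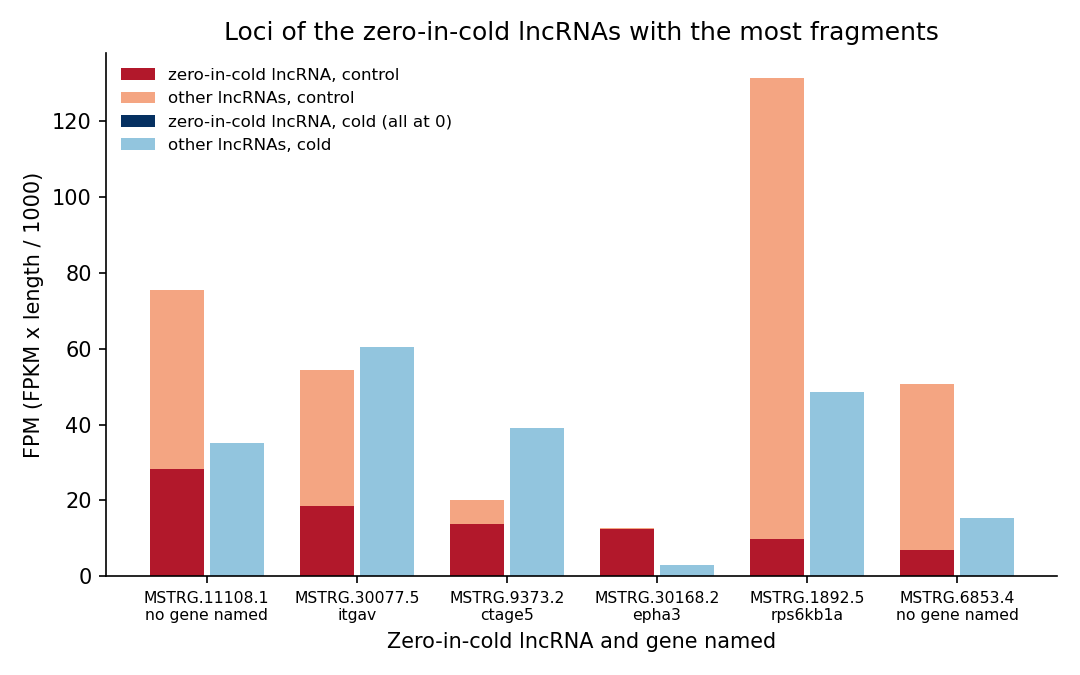
FPM (vertical, FPKM times length in kb) of the 6 zero-in-cold lncRNAs with the most control fragments, stacked with all lncRNAs that share their locus or overlap them. Left bars are control and right bars cold means, without error bars since the table has 1 mean per group. The summed bars were higher in cold at itgav (54.5 and 60.4) and ctage5 (20.1 and 39.1) and lower in cold at the other 4. Each sum includes the transcript chosen for its 0 in cold. Without that transcript, the lncRNAs at epha3 were higher in cold (0.398 and 2.98).

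The rest of the 10 highest control levels were also found beside other lncRNAs. MSTRG.1600.1 (4.45 FPKM in control) and the zero-in-cold MSTRG.1599.3 (1.15) start at the same base on chromosome 10. MSTRG.1600.2 at that locus went from 9.10 to 6.21 FPKM. MSTRG.13925.1 at si:ch211-121a2.4 (4.23 FPKM) and MSTRG.13925.3 (1.82) shared a locus with MSTRG.13925.2, which went from 13.6 to 5.55 FPKM. MSTRG.1790.4 (3.96 FPKM) lay beside MSTRG.1790.1, with 3.03 FPKM in control and 0.967 in cold. MSTRG.8171.2 (2.80 FPKM) overlapped the unspliced MSTRG.8171.1, with 2.52 and 2.61 FPKM.

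The sar1b locus on chromosome 21 held 3 zero-in-cold lncRNAs, the most under a single locus number. Sar1b is a small GTPase that starts the formation of COPII transport vesicles. MSTRG.16094.1, MSTRG.16094.2 and MSTRG.16094.4 were at 1.01, 1.78 and 0.567 FPKM in control. The 4th transcript, MSTRG.16094.3, went from 2.04 to 0.489 FPKM. The locus sum, which includes the 3 chosen for their 0 in cold, fell by 3.06 on the log2 scale. MSTRG.16103.3, named with the COPII coat gene sec24a, overlapped them and went from 0.559 FPKM to 0.

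Away from other lncRNAs, the levels were lower. The 309 zero-in-cold lncRNAs that overlapped no other assembled lncRNA had a median control level of 0.646 FPKM and at most 2.58 FPKM, and 287 of them (92.9%) had 1 exon. The following were picked after their values were seen. MSTRG.27159.1 on chromosome 7 (2.58 FPKM, 343 nt) and MSTRG.2482.1 on chromosome 11 (2.34 FPKM, 430 nt) had the highest control levels of this set. Of the 34 zero-in-cold lncRNAs of 1000 nt or more, 27 overlapped or shared a locus with another lncRNA and 7 did not. A matching count for comparison lncRNAs of that length is not given here. By control fragments MSTRG.11147.1 (1710 nt, 1.33 FPKM, 2.28 FPM), MSTRG.30000.1 at mfsd9 (1511 nt, 1.31 FPKM, 1.98) and MSTRG.27012.1 at tox2 (1694 nt, 1.10 FPKM, 1.87) led among those 7. Unlike the isoforms above, these had no overlapping assembled lncRNA in the table. Overlap with transcripts that the authors removed as known or coding was not checked, here or for the 309.

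A gene was named for 153 of the zero-in-cold lncRNAs (41.6%, interval 36.7% to 46.7%), at 142 distinct genes. This was close to the comparison lncRNAs, with 38.0% unweighted and 37.9% weighted by control FPKM. Of the 142 symbols 127 matched RefSeq, and all 127 were protein-coding. The table does not say whether an lncRNA lies in an intron, overlaps an exon or is on the opposite strand of the gene. The zero-in-cold lncRNA was the sole assembled lncRNA at 79 of the 142 genes. A matching share over all named genes is not given here. At 62 genes other lncRNAs were above 0 in cold, 130 in all, of which 39 were higher in cold than in control. Over all comparison lncRNAs 32.8% were higher in cold.

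The genes were sorted into groups by the start of their symbols, and the share listed at 0 is given beside the 4.40% of the whole table. Such lists are incomplete: rps6kb1a, sar1b, tox2 and pknox2 were placed in none of these lists and are not in the lists' counts. Adhesion and axon guidance genes held 14 zero-in-cold lncRNAs of 156 (8.97%, interval 5.42% to 14.5%). The table-wide shares for the same classes of control FPKM and length would give 7.96. Besides those at itgav and epha3, MSTRG.8640.2 at ptprub, a receptor tyrosine phosphatase gene, went from 1.14 FPKM to 0 while its partner MSTRG.8640.1 went from 2.00 to 3.21. The other 11 of this group had at most 0.986 FPKM in control, among them a pair at cntnap2a, a neuronal adhesion gene. Taking 1 transcript per locus left 13 in this group, and control levels above 1 FPKM left 3.

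Channel and neurotransmitter receptor genes held 10 of 112 (8.93%, interval 4.92% to 15.7%), where the class shares would give 6.79. The highest were MSTRG.6323.1 at the AMPA-type glutamate receptor gene gria1a (1.54 FPKM in control), MSTRG.24202.1 at the serotonin receptor gene htr7c (1.31) and MSTRG.7711.1 at gria4a (1.01). Extracellular matrix genes held 4 of 45 (8.89%), with MSTRG.14651.1 at matn3a (0.694 FPKM), a matrilin, and a pair at the glypican gene gpc5b (0.646 and 0.565). For the matrix group the class shares would give 2.63. The intervals of the adhesion and the channel group lay above 4.40%, while that of the matrix group (3.51% to 20.7%) included it. The groups were formed with earlier results known, so these shares are a description.

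The remaining groups lay nearer to 4.40%, apart from RNA binding and splicing genes. The latter held 3 of 32 (9.38%, interval 3.24% to 24.2%), where the class shares would give 1.19. Those 3 were MSTRG.11449.1 at celf3a (0.822 FPKM), MSTRG.20688.1 at rbfox1 (0.514) and MSTRG.30.13 at mbnl2, all genes of splicing regulators. The list of kinase and GTPase signalling genes held 8 of 132 (6.06%), where the class shares would give 7.92. Its highest was MSTRG.13775.1 at the kinase anchor gene akap7 (0.836 FPKM). MSTRG.17539.1 at arhgef3l (0.709) and MSTRG.5815.1 at arhgef9b (0.667) came next.

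The list of transcription factor genes held 8 of 161 (4.97%), where the class shares would give 5.88. MSTRG.2266.3 at mef2ca, a MADS-box factor of muscle and skeleton, went from 1.98 FPKM to 0 at a locus whose other transcript, MSTRG.2266.4, went from 9.0 to 1.12 FPKM. That locus sum, which includes the chosen 0, fell by 3.29 on the log2 scale, the lowest of the 44. MSTRG.16549.1 at znf1166 (0.863 FPKM), a zinc finger gene, followed. Transporter genes held 4 of 95 (4.21%), with MSTRG.30809.1 at abcb11a (0.694) and MSTRG.7628.1 at slc8a2b (0.635) after the one at slc6a8. For transporter genes the class shares would give 4.64. Cytoskeleton and motor genes held 2 of 47 (4.26%), MSTRG.19128.1 at TUBGCP6 (1.93 FPKM) and MSTRG.26299.1 at kif1aa (0.511). For this list the class shares would give 2.16.

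Genes known only by a clone name held 19 of 683 (2.78%, interval 1.79% to 4.30%), where the class shares would give 32.0. After MSTRG.13925.1, the highest were MSTRG.23477.1 at si:dkey-264f17.5 (1.15 FPKM) and MSTRG.14430.1 at si:dkey-6f10.3 (1.04). This was the one group whose interval lay below 4.40%.

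At 8 genes more than 1 zero-in-cold lncRNA was named, and these genes were picked for that after the values were seen. At tox2, an HMG-box gene on chromosome 6, 4 of 5 lncRNAs over 214 kb were at 0 in cold. MSTRG.27007.1, MSTRG.27010.1, MSTRG.27012.1 and MSTRG.27013.1 had control levels of 0.539, 0.972, 1.10 and 1.20 FPKM. The 5th, MSTRG.27008.1, went from 0.725 to 1.33 FPKM. All 5 were unspliced, and none overlapped another assembled lncRNA. The last 3 lay between 197 and 214 kb from the start of the first.

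**Figure D4:**
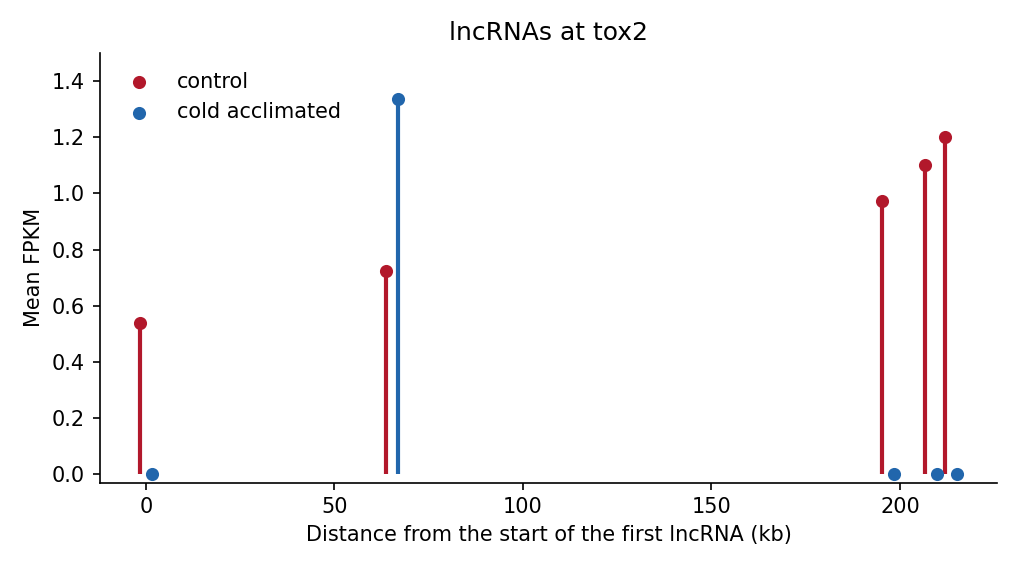
Mean FPKM (vertical) of the 5 lncRNAs named with tox2 against the distance of each from the start of the first in kb (horizontal), with control in red and cold acclimated in blue, drawn slightly apart. No error bars are drawn since the table has 1 mean per group. The blue points lie at 0 for all but MSTRG.27008.1, which is higher in cold.

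At akap7 both assembled lncRNAs were at 0 in cold, with 0.836 and 0.562 FPKM in control and 3276 nt between them. It was the one gene with several lncRNAs that were all at 0. At grik4, a kainate receptor gene, MSTRG.7202.1 (0.544 FPKM) and MSTRG.7203.1 (0.626) were at 0, while MSTRG.7201.1 was at 1.35 in control and 1.34 in cold. At nrg2a, a neuregulin gene, 2 of 5 were at 0, MSTRG.15642.1 (0.693) and MSTRG.15643.1 (0.893), and the other 3 were all lower in cold. At stag1a, a cohesin subunit gene, 2 of 3 were at 0 and MSTRG.12935.1 went from 1.14 to 0.257 FPKM. Neighbours of zero-in-cold lncRNAs thus included lncRNAs that were level, higher and lower in cold.

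Another zero-in-cold lncRNA at a different locus lay within 50 kb of 24 of the 368 (6.52%, interval 4.42% to 9.52%). Such a neighbour was found for 4.49% of the comparison lncRNAs weighted by control FPKM, which lies within that interval. With a gap under 10 kb the shares were 4.62% and 1.53%. Above 1 FPKM in control they were 9.46% (of 74) and 1.88% at 50 kb. The 9.46% were MSTRG.1599.3 with MSTRG.1600.1, MSTRG.27012.1 with MSTRG.27013.1 at tox2, and MSTRG.19613.1 with MSTRG.19615.2 and MSTRG.19615.3. MSTRG.1599.3 overlapped MSTRG.1600.1, and MSTRG.19613.1 overlapped MSTRG.19615.2. Of the 24 with a neighbour within 50 kb, 8 overlapped it. How many comparison lncRNAs overlapped such a neighbour is not given here, so these shares do not separate overlap from nearness. The median distance to the nearest other zero-in-cold lncRNA was 1358 kb. A cluster on chromosome 25 held MSTRG.19613.1 (1.48 FPKM in control), MSTRG.19615.2 (1.55) and MSTRG.19615.3 (1.54). MSTRG.19606.2 (0.685) lay at lower coordinates, more than 50 kb away. Of the lncRNAs listed in between, MSTRG.19610.1 went from 1.18 to 1.27 FPKM and the others were lower in cold. The overlapping MSTRG.19615.1 went from 1.16 to 0.351 FPKM, and MSTRG.19614.1 from 1.16 to 0.285.

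The zero-in-cold lncRNAs were spread over all 25 chromosomes, with 7 to 22 on each, and 16 lay on unplaced scaffolds. The share listed at 0 was 8.05% on chromosome 10 (21 of 261, interval 5.32% to 12%) and 7.94% on chromosome 24 (15 of 189, interval 4.87% to 12.7%). These were the 2 chromosomes whose interval lay above 4.40%. On the other 23 the interval included it, and none lay below. On chromosome 10, 6 of the 21 were spliced, and the class shares of control FPKM would give 12. On chromosome 24 they would give 9.20. Which chromosome was highest changed with the setting, and above 1 FPKM it was chromosome 14, with 3.85%.

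**Figure D5:**
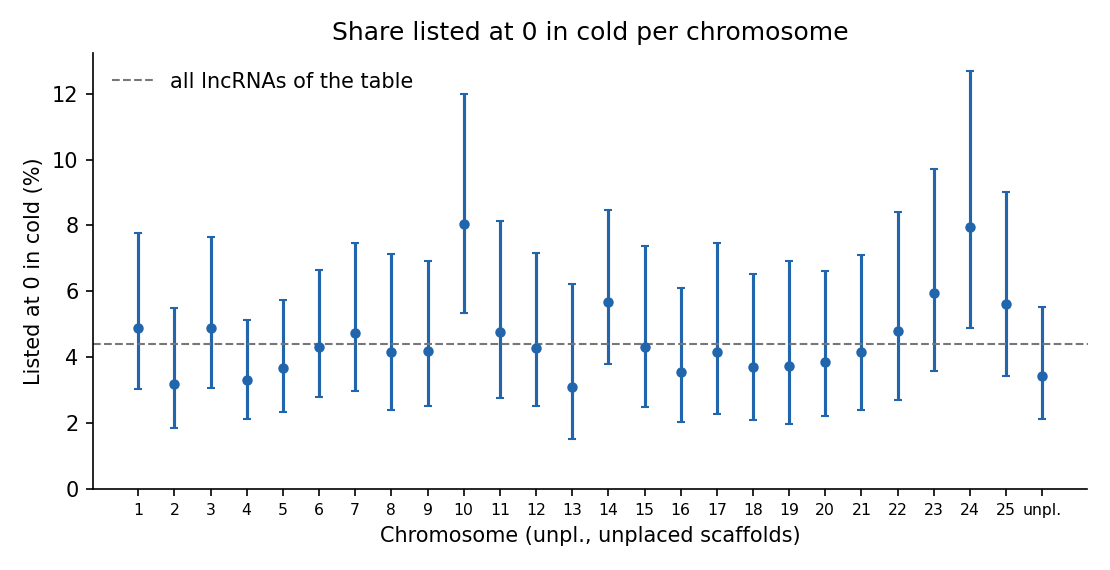
Share of assembled lncRNAs listed at 0 in cold (vertical, percent) on each chromosome and on unplaced scaffolds (horizontal). Points are shares, bars Wilson 95% intervals over transcripts, and the dashed line is the 4.40% of the whole table. Only the bars of chromosomes 10 and 24 lie wholly above the line.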

How the data were processed

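Total RNA of ZF4 cells was sequenced in 3 control libraries and 3 cold acclimated libraries. The authors aligned the reads with HISAT2 (2.1.0) to GRCz10, assembled transcripts with StringTie (1.3.3), removed transcripts of known or coding type and kept those above 0.5 FPKM in at least 1 library. The deposited FPKM values are means per group, and no value of a single library entered. The deposited columns of the authors' comparison (log2 fold change, p-value, FDR and direction) were not used. Depth per library is unknown, so no interval resting on depth was given.

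Transcripts with a cold FPKM of 0 were taken as deposited. Comparison lncRNAs were weighted to the zero-in-cold lncRNAs by control FPKM class (edges 0, 0.5, 0.75, 1, 1.5, 2 and 5). Wilson intervals (95%) were given for shares and binomial order-statistic intervals for medians. No test was made, since there are no replicate values. Class shares sum, over a set's transcripts, the table-wide share at 0 of each transcript's class.

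The zero-in-cold lncRNAs, the 9 groups of genes and the rule for naming were chosen with earlier results of these data known. The rule named the 10 highest in control FPKM, the 5 with most fragments, the 3 longest, the 3 with most exons, those in the study's text, up to 3 per gene group, loci with 3 or more, the 3 lowest, and the 3 lowest cold values above 0. The partners at a locus are given beside them. An lncRNA that the rule named is not reported here. Symbol patterns of the gene groups were corrected after the values were seen, where pknox2 and tnrc6 genes had been misplaced. Gene symbols were matched to RefSeq names of a later assembly (GRCz12tu), with no coordinates taken from it. Primer sequences are those listed by the study. Calculations ran under Python 3.11.15 (matplotlib 3.10.9 for plots, scipy 1.17.1 for intervals, pandas 2.3.3 and numpy 2.4.6 for tables).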

Additional observations from a re-analysis of the deposited data

How the results depend on the processing

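Under the other choices of transcripts, weightings and gaps, 74 of 96 values moved by less than the interval of the zero-in-cold lncRNAs' own value, or by up to 1.5 times for counts, and 22 moved by more. Control FPKM above 1 only left 74 zero-in-cold lncRNAs (9 in the functional gene groups), with medians of 1.32 FPKM, 0.738 FPM and 479.5 nt (comparison 694 nt), 41.9% with 1 exon (comparison 68.1%), 40.5% at a shared locus, 3.85% on the highest chromosome, and 1.88% of comparison lncRNAs with a zero-in-cold lncRNA within 50 kb. With 1 transcript per locus, 89.5% had 1 exon (comparison 85.1%), 2.15% lay at a shared locus (comparison 1.32%) and the comparison length was 400 nt. That choice keeps the highest control FPKM of a locus, which 7 of the 50 at shared loci had. The comparison lncRNAs had a length of 307 nt weighted by fragment class, and of 565 nt with 69.8% of 1 exon unweighted. The comparison share at a shared locus, 6.65%, was 10.2% unweighted, 4.81% weighted by fragment class, 4.23% by FPKM and length class, and 10.4% by overlap of intervals, where the zero-in-cold lncRNAs had 16.0%. A gap under 200 kb gave 16.3% (comparison 12%), and a gap under 10 kb gave 4.62% (comparison 1.53%). Of the 40 values for single gene groups 8 moved, all with control FPKM above 1 only.

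Weighting by FPKM and length class together and leaving out overlapping transcripts were added after the data were seen. No paired analysis was possible because the table gives only group means, and for the same reason leaving out single libraries could not be run.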

Other observations

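The values of low lncRNAs recurred at fixed sizes. Over lncRNAs with 1 exon, 3 times the control mean times the length in kb gives the sum over the 3 libraries in FPM. Among 1259 low sums in control, 31 fell on whole multiples of 0.0985. Among the sums left after taking those out, 28 fell on whole multiples of 0.0665. Multiples ran up to 6 steps and held within 3e-05 for each step. The median for other sizes tried was 2 in either count. In cold acclimated cells the sizes were 0.0589 (56 of 2074) and 0.0538 (24 of the sums then left), against a median of 4. The search was chosen after the values were seen. In each group the sizes were picked for the highest counts among all sizes tried on these same values. Some excess over the median therefore comes from that choice. No size can be assigned to a library, since only group means are given. Whether 1 step is 1 fragment is not stated in the sources used here. The 291 unspliced zero-in-cold lncRNAs had a median control sum of 0.516 FPM over the 3 libraries, which is 5.24 steps of the first size or 7.77 of the second. At whole multiples of these lay 15 and 12 of them, and 198 (68.0%) were under 10 steps of the second size. The same control FPKM and length were shared by 5 zero-in-cold lncRNAs with another of them.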
